A study of Arabidopsis thaliana with 96 samples.

Results

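The transcripts of 10 genes of the phosphate starvation response of Arabidopsis thaliana were followed in leaves grown at 3 light levels and 4 nitrate doses. They were taken by locus name from the deposited gene counts and are SPX1, SPX2, SPX3, PHT1;1, PHT1;4, PHO1, PHO1;H1, SQD2, MGD3 and PAP17, which makes 10 of the 32833 loci in the table. Of the 10, 8 had enough counts to be tested among 19498 genes. All plants were of the accession Col-0, with no mutation or transgene in the labels, and were fed half-strength Hoagland solution after a start on sucrose-containing medium until 10 days after germination. Photon flux density was 100 (low light), 250 (mid light) or 500 (high light) µmol per square metre and second, in days of 8 h light and 16 h dark, and nitrate in the solution was 2, 5, 10 or 20 mM. On day 30 after transplanting, 2 leaf punches per plant gave 1 library, and 8 plants per group gave 96 libraries in 12 groups. Phosphate supply was not varied according to the labels, and no phosphate measurement was used here.

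Plants short of phosphate raise a common set of transcripts through the transcription factor PHR1, which binds a short palindrome in promoters called P1BS. SPX proteins sense inositol pyrophosphates and hold PHR1 back when phosphate is ample, and the genes for several of them are themselves PHR1 targets. Downstream of PHR1 stand carriers that take up phosphate, exporters that load it into the xylem, phosphatases that free it from organic compounds, and enzymes that replace phospholipids with galactolipids and sulfolipids. The nitrate status of the plant is known to act on this response.

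Levels are given as counts per 1000000 counts of the library after TMM scaling (CPM), as lowest, median and highest of 8 plants. Changes are log2 changes with their standard error (SE) from an edgeR quasi-likelihood fit of all 96 libraries, and a gene was called when its Benjamini-Hochberg adjusted p over the 19498 genes was under 0.05. Light changes average the 4 doses and nitrate changes average the 3 light levels unless a dose or level is named. Library totals ran from 9.46 to 18.1 in units of 1000000 counts. The TMM factor by group ran from 0.884 (low light at 10 mM) to 1.22 (high light at 5 mM), so the scaling differed with the conditions. The changes were not refitted on library totals alone, and small ones, as of SQD2, PHO1 and SPX2, may depend on the scaling. By their codes the libraries fall into 4 blocks of 24, here named code sets 1 to 4, each with 2 plants of every group. Replicate numbers largely follow the code sets, so leaving out a number mostly takes plants from 1 code set. What the codes stand for is not given in the sources used here, and values within code sets stand beside the results that they move. Gene positions are those of the RefSeq annotation of TAIR10.1. Fewer cells of a type and less RNA per cell cannot be told apart in leaf punches.

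High against low light called 6 of the 8 tested genes, 4 higher and 2 lower, where 62.5% of all tested genes were called, 33.8% higher and 28.7% lower. SPX1, PHT1;4, MGD3 and PAP17 rose in high light, and PHO1 and SQD2 fell. For 20 against 2 mM nitrate 4 of the 8 were called, 1 higher and 3 lower, where 63.3% of all tested genes were called, 28.7% higher and 34.6% lower. SPX2 was higher at 20 mM, and SPX1, PHT1;4 and MGD3 were lower. SPX1, PHT1;4 and MGD3 were thus called higher in high light and lower at 20 mM, in comparisons that share libraries. The share of all genes with both calls is not given here, so this pair of directions is not read as particular to phosphate genes. The median change of the 8 genes was 0.39 for light and -0.13 for nitrate, beside 0.04 and -0.06 over all tested genes. The counts called lay near the share of all genes, and the directions differed among the 8.

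**Figure D1:**
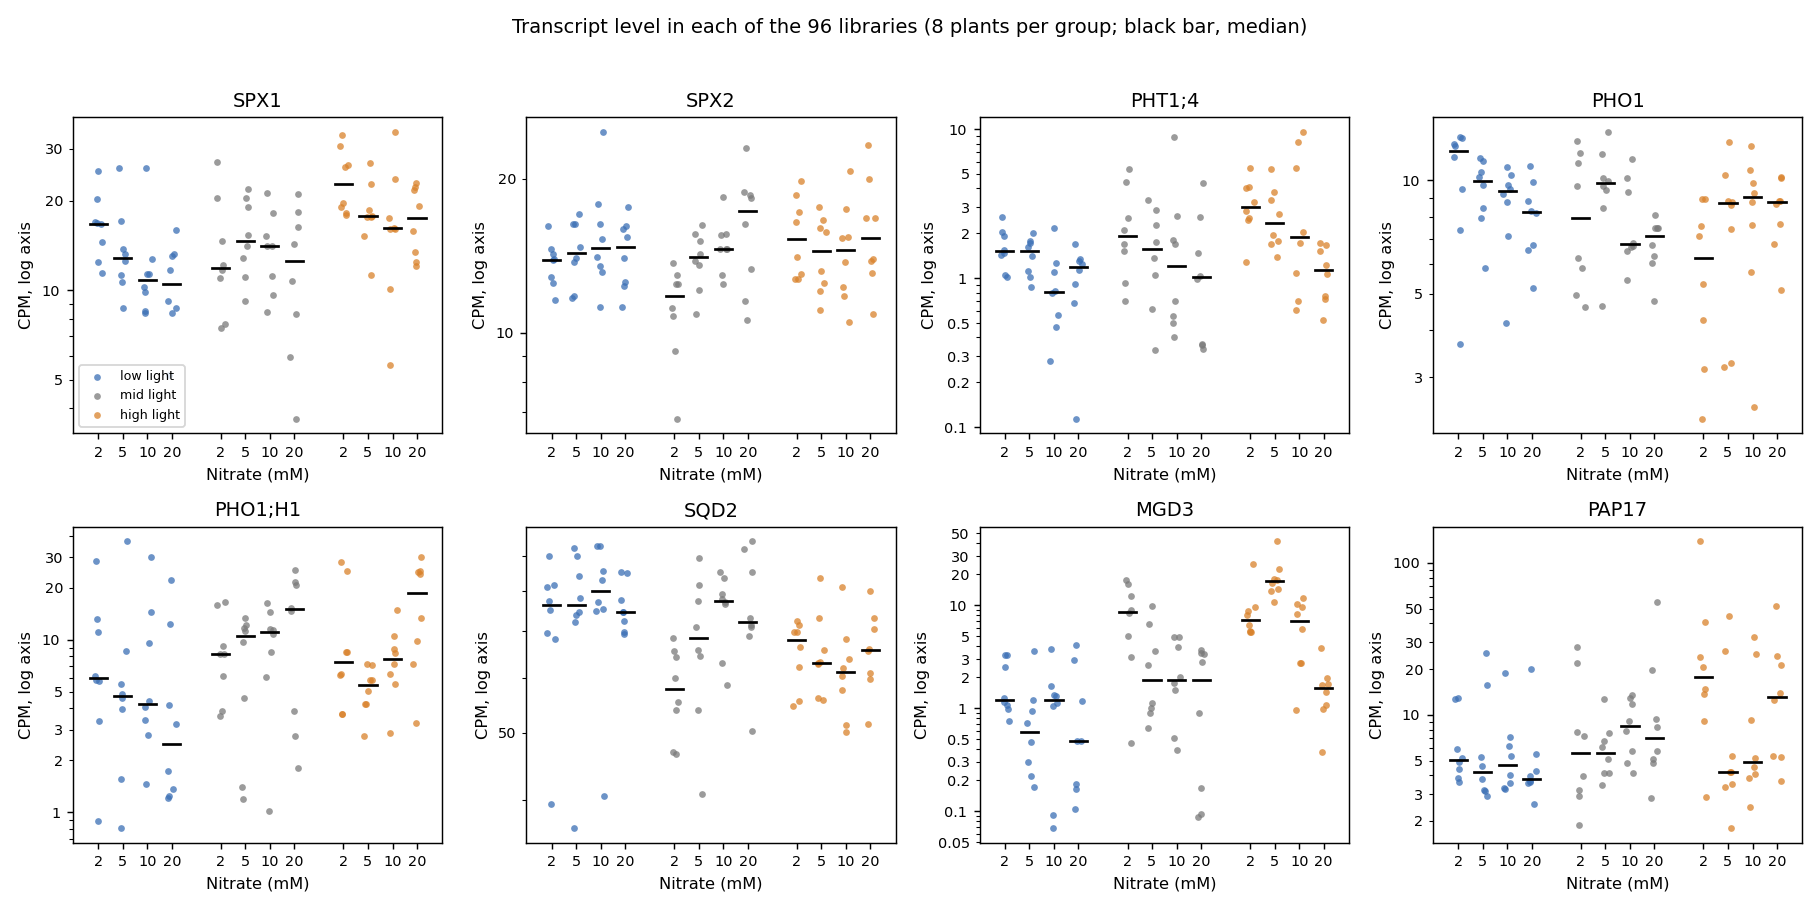
Level of each of the 8 tested genes in CPM (log axis) in the 96 libraries, by light (low, mid and high) and nitrate dose (2 to 20 mM); each point is 1 plant and the black bar the median of 8. MGD3 has the widest range of group medians, from 0.481 CPM in low light at 20 mM to 17 CPM in high light at 5 mM, while SQD2 has the narrowest relative spread, with a coefficient of variation of 18.7%.

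MGD3 (AT2G11810, chr2:4743162-4746813, plus strand) had the largest averaged changes of the 8 genes for light and for nitrate. It encodes a monogalactosyldiacylglycerol synthase of the kind that makes galactolipids to stand in for phospholipids when phosphate is short. Its transcript rose in high against low light by 2.35 ± 0.32 (log2 change ± SE, adjusted p = 1.73e-09) and fell at 20 against 2 mM nitrate by 1.80 ± 0.37 (adjusted p = 1.83e-05). At 5 mM nitrate it stood at 10.7, 17 and 41.8 CPM (lowest, median and highest) in high light, against 0.172, 0.592 and 3.61 CPM in low light. Every plant in high light lay above every plant in low light at that dose, and the change was 4.29 ± 0.69 (adjusted p = 4.46e-07). The low light libraries at 5 mM held only 2 to 58 counts of MGD3. At 2 mM the levels were 5.49, 7.23 and 24.9 CPM in high light, against 0.746, 1.2 and 3.29 CPM in low light, again without overlap (2.37 ± 0.63, adjusted p = 0.00195). At 10 mM they were 0.961, 7.07 and 11.6 CPM in high light, against 0.068, 1.21 and 3.76 CPM in low light. Here 5 of 8 high light plants lay above all low light plants, and the gene was called (2.29 ± 0.64, adjusted p = 0.00544).

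At 20 mM nitrate MGD3 did not differ detectably with light. It stood at 0.375, 1.56 and 3.84 CPM in high light and at 0.104, 0.481 and 4.08 CPM in low light, with no high light plant outside the range of low light, and the change of 0.46 ± 0.65 did not pass (adjusted p = 0.746). Within high light, all 8 plants at 20 mM lay below all 8 at 2 mM, with a change of -2.50 ± 0.64 (adjusted p = 8.75e-04). In mid light the levels were 0.0874, 1.87 and 3.66 CPM at 20 mM, against 0.463, 8.65 and 17.6 CPM at 2 mM, with 3 of 8 plants at 20 mM below all at 2 mM. That fall was called (-2.31 ± 0.63, adjusted p = 0.00211). In low light the change of -0.59 ± 0.64 was not (adjusted p = 0.597).

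The test of all 6 light by nitrate terms together called MGD3 alone among the 8 genes (adjusted p = 0.0174), where 12.7% of all genes were called. The call was lost without replicate 4 (adjusted p = 0.0790), without replicate 6 (adjusted p = 0.0940) and with limma-voom (adjusted p = 0.154). The single term for 20 against 2 mM in high against low light was -1.91 ± 0.89 and did not pass (adjusted p = 0.195). That term called 0 of the 8 genes by edgeR, DESeq2 or limma-voom, with 2 at an unadjusted p under 0.05, where 6.03% of all genes were called. Within the 4 code sets the light change of MGD3 was 1.69, 2.81, 2.63 and 4.10, called in each. The nitrate change within the sets was -1.68, -0.96, -3.10 and -3.65, called in all but code set 2. In code set 4 the medians of MGD3 were 0.237 CPM in low light and 0.239 CPM at 20 mM. A library with 3 counts would stand at 0.148 to 0.342 CPM, so the sizes of both changes in that set rest on few counts.

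**Figure D2:**
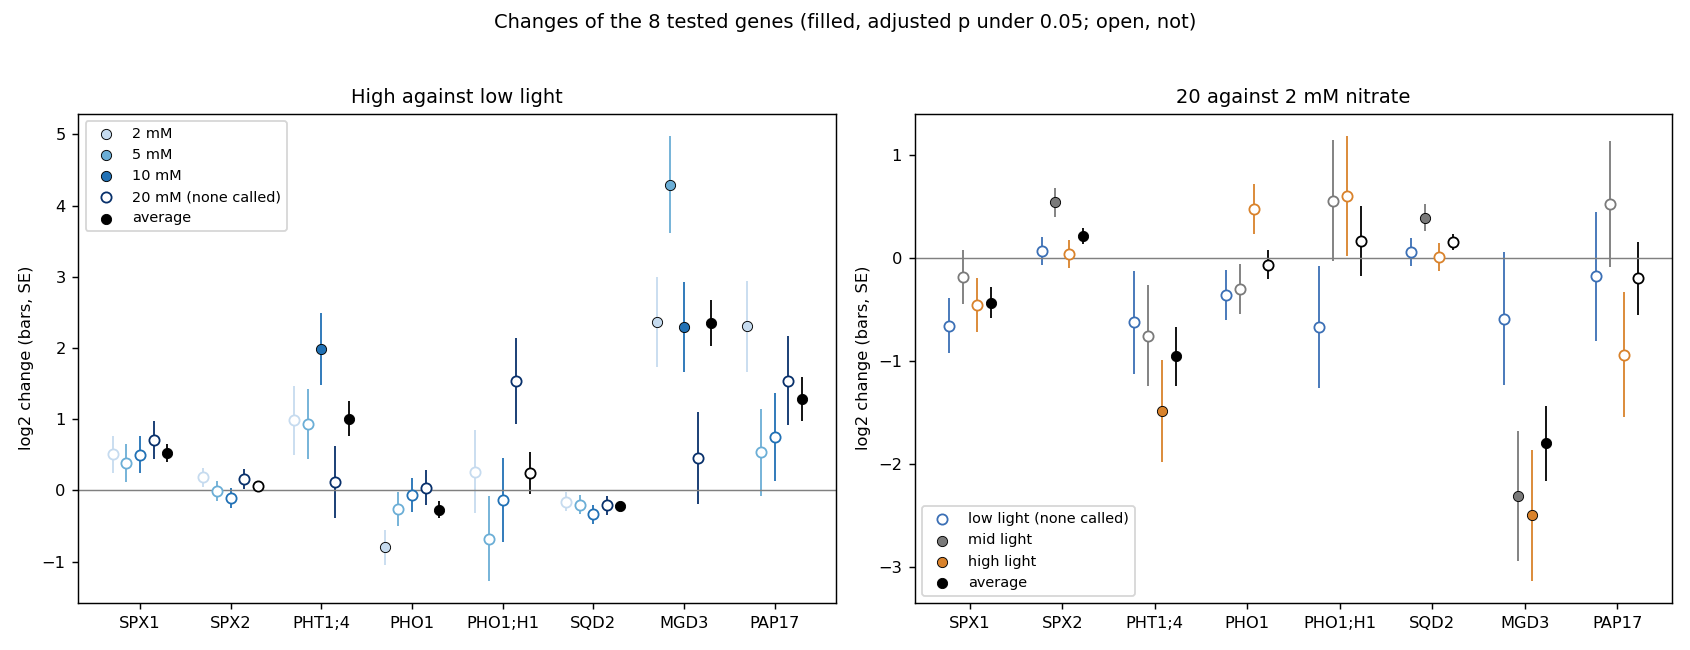
Log2 changes of the 8 tested genes with SE bars, high against low light at 2, 5, 10 and 20 mM nitrate and on average (left), and 20 against 2 mM nitrate in low, mid and high light and on average (right). Filled points were called at an adjusted p under 0.05; MGD3 in high against low light reaches 4.29 at 5 mM and is open at 20 mM.

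Calls for light were also made dose by dose. At 2 mM high light called 3 of the 8 genes (MGD3, PAP17 and PHO1) against 42.9% of all genes, at 5 mM 1 (MGD3) against 44%, and at 10 mM 2 (PHT1;4 and MGD3) against 23.6%. At 20 mM it called 0 by edgeR, DESeq2 or limma-voom, with 3 at an unadjusted p under 0.05, where 3.78% of all genes were called. PHO1;H1 and PAP17 were called there without replicate 1, as given with each gene. Between neighbouring doses averaged over light, 0 of the 8 genes were called by edgeR, DESeq2 or limma-voom for 5 against 2 mM (7.54% of all genes), 10 against 5 mM (14%) and 20 against 10 mM (1.1%). At an unadjusted p under 0.05 these steps gave 0, 0 and 2 genes. For 20 against 2 mM within a light level, 3 of the 8 were called in mid light (45.8% of all genes) and 2 in high light (50.8%). In low light 0 were called by edgeR, DESeq2 or limma-voom, with 1 at an unadjusted p under 0.05 (8.69% of all genes).

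Mid against low light called MGD3 only among the 8 genes, by 1.39 ± 0.32 (adjusted p = 8.57e-04), where 19.8% of all genes were called. With the code set as a block it called 3 (PHT1;4, PHO1;H1 and MGD3), and without code set 1 it called 5 (PHO1, PHO1;H1, SQD2, MGD3 and PAP17). The share of all genes called in those fits is not given here. High against mid light called SPX1 (0.46 ± 0.13, adjusted p = 0.00406), MGD3 (0.96 ± 0.30, adjusted p = 0.00938) and PAP17 (0.83 ± 0.31, adjusted p = 0.0262), where 38.7% were called. The PAP17 call was lost without replicate 2 (0.31, adjusted p = 0.398), replicate 4 (0.82, adjusted p = 0.0584) or replicate 6 (0.83, adjusted p = 0.0564), without code set 1 (0.29) and with limma-voom (0.48). The change of SPX1 in mid against low light was 0.07 ± 0.13 (adjusted p = 0.752).

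Among the SPX genes, which encode the phosphate sensors, SPX1 was called for light and nitrate and SPX2 for nitrate. SPX1 (AT5G20150, chr5:6802282-6803655, plus strand) rose in high light by 0.53 ± 0.13 (adjusted p = 3.66e-04) and fell at 20 against 2 mM by 0.43 ± 0.15 (adjusted p = 0.0109). At 2 mM it stood at 17.9, 22.8 and 33.4 CPM in high light, against 11.4, 16.8 and 25.2 CPM in low light. The groups overlapped at every dose, with 4 of 8 high light plants above all low light plants at 2 mM and again at 20 mM. At 20 mM the levels were 12.1, 17.5 and 22.9 CPM in high light, against 5.19, 10.5 and 16 CPM in low light. The groups with the highest and lowest median of SPX1, high light at 2 mM and low light at 20 mM, did not overlap, but were picked by those medians. Extreme groups picked in this way also did not overlap for MGD3 and overlapped for the other tested genes. The share over all genes is not given here. At single doses SPX1 was called at 2 mM without replicate 1 (0.67, adjusted p = 0.0441) and at 10 mM without low light 10 mM replicate 2 (0.75, adjusted p = 0.0281). The nitrate call of SPX1 was lost without replicate 5 (-0.33, adjusted p = 0.0721) or replicate 8 (-0.30, adjusted p = 0.0766). Within code sets 1 and 2 its nitrate change was -0.01 and 0.04, and its light change within code set 1 was 0.10.

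SPX2 (AT2G26660, chr2:11338752-11340950, plus strand), a close relative of SPX1 with an overlapping role, had a coefficient of variation of 20.6% over the 96 libraries, against 39.9% for SPX1. Its light change was 0.06 ± 0.07 (adjusted p = 0.488). The nitrate change of 0.22 ± 0.08 was called (adjusted p = 0.0139), and among the light levels mid light alone was called, with a change of 0.54 ± 0.14 (adjusted p = 0.00106). In mid light the levels were 10.6, 17.3 and 23 CPM at 20 mM, against 6.79, 11.8 and 13.7 CPM at 2 mM, with 5 of 8 plants at 20 mM above all at 2 mM. The changes in high light (0.04 ± 0.14) and low light (0.07 ± 0.14) were not called, and the light by nitrate terms of SPX2 did not pass. Without replicate 3 or 4 the averaged change was 0.19 (adjusted p = 0.0576) and 0.18 (adjusted p = 0.0705), and in code set 4 it was -0.05.

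SPX3 (AT2G45130, chr2:18606410-18607853, plus strand), an SPX gene known to be strongly raised by phosphate starvation, was barely present. It had counts in 41 of the 96 libraries, 75 counts in all and at most 6 in a library. A library with 3 counts would stand at 0.148 to 0.342 CPM depending on its depth, so most values lay at or under what 3 counts allow, and no difference was detectable at this depth. The summed counts were 17 in low, 23 in mid and 35 in high light. The stretch before SPX3 is shown because it holds 2 matches to the PHR1 binding motif, and the other 9 genes hold none in a stretch of that length. The 300 bases upstream of the annotated start (TAIR10.1, chr2:18606110-18606409, plus strand, read from the RefSeq genome) are given with the P1BS matches in capitals.
SPX3 upstream: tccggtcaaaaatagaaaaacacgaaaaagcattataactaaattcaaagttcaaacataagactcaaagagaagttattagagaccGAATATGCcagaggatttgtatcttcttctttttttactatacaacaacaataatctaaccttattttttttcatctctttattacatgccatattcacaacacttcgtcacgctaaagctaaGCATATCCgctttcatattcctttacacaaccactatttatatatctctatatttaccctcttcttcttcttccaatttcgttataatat

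P1BS was searched as GNATATNC, which reads the same on both strands, in the 300 and the 1000 bases before each annotated start. The matches stand 213 and 90 bases before the start of SPX3. In the 1000 bases SPX1 held 1 match, 735 bases before its start, SQD2 1 match at 340 bases and PHT1;1 2 matches at 786 and 768 bases, and SPX3 none beyond those 2. Of 27443 promoters of protein-coding genes, 6.5% held a match in 300 bases and 20.3% in 1000 bases, and 0.313% held 2 or more in 300 bases. SPX2, PHT1;4, PHO1, PHO1;H1, MGD3 and PAP17 had no match to these letters in 1000 bases. The sites outside SPX3 are shown in capitals within 30 bases, so that their cores can be compared.
SPX1 (chr5:6801547-6801554, plus strand): tttcctatcaaGAATATTCcatggaatcca
SQD2 (chr5:90450-90457, minus strand): ttatgtgaagcGAATATTCattggaataga
PHT1;1 at 786 bases (chr5:17402937-17402944, minus strand): tatgttctcgcGAATATCCtatgtttttcg
PHT1;1 at 768 bases (chr5:17402919-17402926, minus strand): ctatgtttttcGAATATGCttttttaaaat
The cores of the SPX1 and SQD2 sites are the same letters, and SPX1 was called higher and SQD2 lower in high light. A match is a description of the sequence and was not tested as a site.

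Of the phosphate uptake carriers, PHT1;4 (AT2G38940, chr2:16257157-16260253, plus strand), a high-affinity proton and phosphate symporter, was expressed and changed, and PHT1;1 (AT5G43350, chr5:17399769-17402158, minus strand) was at the limit of detection. PHT1;4 rose in high light by 1.00 ± 0.25 (adjusted p = 3.15e-04) and fell at 20 against 2 mM by 0.95 ± 0.29 (adjusted p = 0.00282). At 2 mM its levels were 1.29, 3.02 and 5.49 CPM in high light, against 1.02, 1.52 and 2.57 CPM in low light, with 5 of 8 high light plants above all low light plants. At 10 mM they were 0.612, 1.88 and 9.59 CPM in high light, against 0.277, 0.807 and 2.19 CPM in low light (1.99 ± 0.50, adjusted p = 0.00239). At 20 mM the ranges overlapped, at 0.521, 1.14 and 1.73 CPM in high light and 0.114, 1.19 and 1.7 CPM in low light. Within high light the change at 20 against 2 mM was -1.49 ± 0.50 (adjusted p = 0.00991), with 5 of 8 plants at 20 mM below all at 2 mM. It was also called for nitrate in mid light without replicate 1 (-1.30, adjusted p = 0.0281), for mid against low light without replicate 6 (0.77, adjusted p = 0.0312) and for high against mid light without replicate 5 (0.61, adjusted p = 0.0490). The light change was positive in all 4 code sets (1.64, 0.86, 0.66 and 0.88), none of which passed alone with 24 libraries.

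PHT1;1, a main uptake carrier of roots, had 5 counts in 4 of the 96 libraries and at most 2 in a library. Its near-identical neighbour PHT1;2 (AT5G43370) had counts in 6 libraries, so reads could have been split between the copies or left uncounted, and both are uncertain. The root markers EXPA7, RHD6 and MYB36 had 0 counts in all 96 libraries and CASP1 and COBL9 at most 9 and 14 counts, while PYK10, abundant in roots, reached 45.9 CPM in 1 library and was at 0 in 39.

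The exporters PHO1 and PHO1;H1, which move phosphate out of cells towards the xylem, were read at very different spreads between plants, with coefficients of variation over the 96 libraries of 31.6% and 83.4%. PHO1 (AT3G23430, chr3:8387398-8393467, minus strand) fell in high light by 0.27 ± 0.12 (adjusted p = 0.0454), and of the doses 2 mM alone was called (-0.80 ± 0.24, adjusted p = 0.00653). The levels at 2 mM were 2.33, 6.20 and 8.95 CPM in high light, against 3.68, 12 and 13 CPM in low light. In that comparison 2 of 8 high light plants lay below all low light plants, and 1 low light plant (replicate 2, at 3.68 CPM) stood apart from the other 7, at 7.40 to 13 CPM. At 5, 10 and 20 mM the changes were -0.26, -0.07 and 0.04 and none was called. The averaged call was lost in turn without replicates 1, 3, 4, 7 or 8 (adjusted p from 0.0592 to 0.133), without low light 20 mM replicate 2 (0.0649), without high light 2 mM replicate 1 (0.0674), and with no filter on low counts (0.0606). The nitrate change of PHO1 in high light set against that in low light was called without low light 2 mM replicate 2 (0.97, adjusted p = 0.0461).

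PHO1;H1 (AT1G68740, chr1:25812449-25816983, minus strand) spread widely between plants of a group. In low light at 5 mM it stood at 0.806, 4.74 and 37.2 CPM, and the coefficient of variation within the 12 groups ran from 28.9% to 142%. Neither light (0.25 ± 0.29, adjusted p = 0.475) nor nitrate (0.17 ± 0.34, adjusted p = 0.680) was called. In high light its highest levels were at 20 mM, with 3.28, 18.7 and 30.4 CPM, against 1.21, 2.49 and 22.2 CPM in low light (1.53 ± 0.60, adjusted p = 0.132). The light change depended on how the code sets were treated. It was 0.98 without code set 1 (adjusted p = 0.00225) and 0.60 with the code set as a block (adjusted p = 0.0167), and within sets 1 to 4 it was -0.58, 0.91, 0.81 and 1.41. At 20 mM the change was called without replicate 1 (2.17, adjusted p = 0.0247) and without low light 20 mM replicate 1 (2.26, adjusted p = 0.0204). Leaving out code set 1 gave 2.72 (adjusted p = 0.00193).

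SQD2 (AT5G01220, chr5:86543-90117, minus strand), the sulfolipid synthase that forms a lipid without phosphorus, was lower in high light, where MGD3 was higher. It fell in high light by 0.22 ± 0.07 (adjusted p = 0.00261). At 10 mM its levels were 50.2, 61.2 and 81.1 CPM in high light, against 40.6, 80 and 93.1 CPM in low light, with overlapping ranges. At 20 mM 5 of 8 high light plants lay below all low light plants, at 51.5, 65.7 and 80.1 CPM in high light against 69.3, 74.6 and 85.1 CPM in low light. At 10 mM SQD2 was called without low light 10 mM replicate 1 (-0.43, adjusted p = 0.0106) and at 5 mM without low light 5 mM replicate 1 (-0.30, adjusted p = 0.0410). The nitrate change on average was 0.16 ± 0.08 and did not pass (adjusted p = 0.0658), though without replicate 1 it did (0.18, adjusted p = 0.0200). Mid against low light was likewise called without replicate 1 (-0.16, adjusted p = 0.0472). In mid light the nitrate change was 0.40 ± 0.13 (adjusted p = 0.0119). There 7 of 8 plants at 20 mM lay above all plants at 2 mM, at 50.3, 72.3 and 94.4 CPM at 20 mM against 46.6, 57.7 and 68.5 CPM at 2 mM. That call was lost without replicate 3 (0.31, adjusted p = 0.0815). SQD2 had the smallest relative spread of the 8 genes, with a coefficient of variation of 18.7% over all 96 libraries, and in code set 1 its light change was 0.03.

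PAP17 (AT3G17790, chr3:6089381-6091231, plus strand), a purple acid phosphatase known to be raised by phosphate starvation and in senescing leaves, rose in high light by 1.28 ± 0.31 (adjusted p = 2.60e-04). The rise was called at 2 mM (2.30 ± 0.64, adjusted p = 0.00286), where the levels were 2.87, 17.6 and 139 CPM in high light, against 3.63, 5.06 and 12.9 CPM in low light. Of the 8 high light plants 6 lay above all low light plants and 1 lay below them all. At 5 mM the medians were equal to the digits given, at 4.2 CPM in both high and low light, with highest values of 44.7 CPM in high light and 25.4 CPM in low light. At 20 mM the levels were 3.66, 13.1 and 51.9 CPM in high light, against 2.59, 3.8 and 20.2 CPM in low light, and the change of 1.54 ± 0.63 was not called (adjusted p = 0.148). It was called without replicate 1 (2.19, adjusted p = 0.0254) and without low light 20 mM replicate 1 (2.15, adjusted p = 0.0349). Leaving out code set 1 gave 1.59, also called (adjusted p = 0.0320). The averaged nitrate change of PAP17 did not pass (-0.20 ± 0.35, adjusted p = 0.642). Without replicate 2, whose high light 2 mM plant held the 139 CPM, the averaged light change was 0.84 and was still called (adjusted p = 0.00928).

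**Figure D3:**
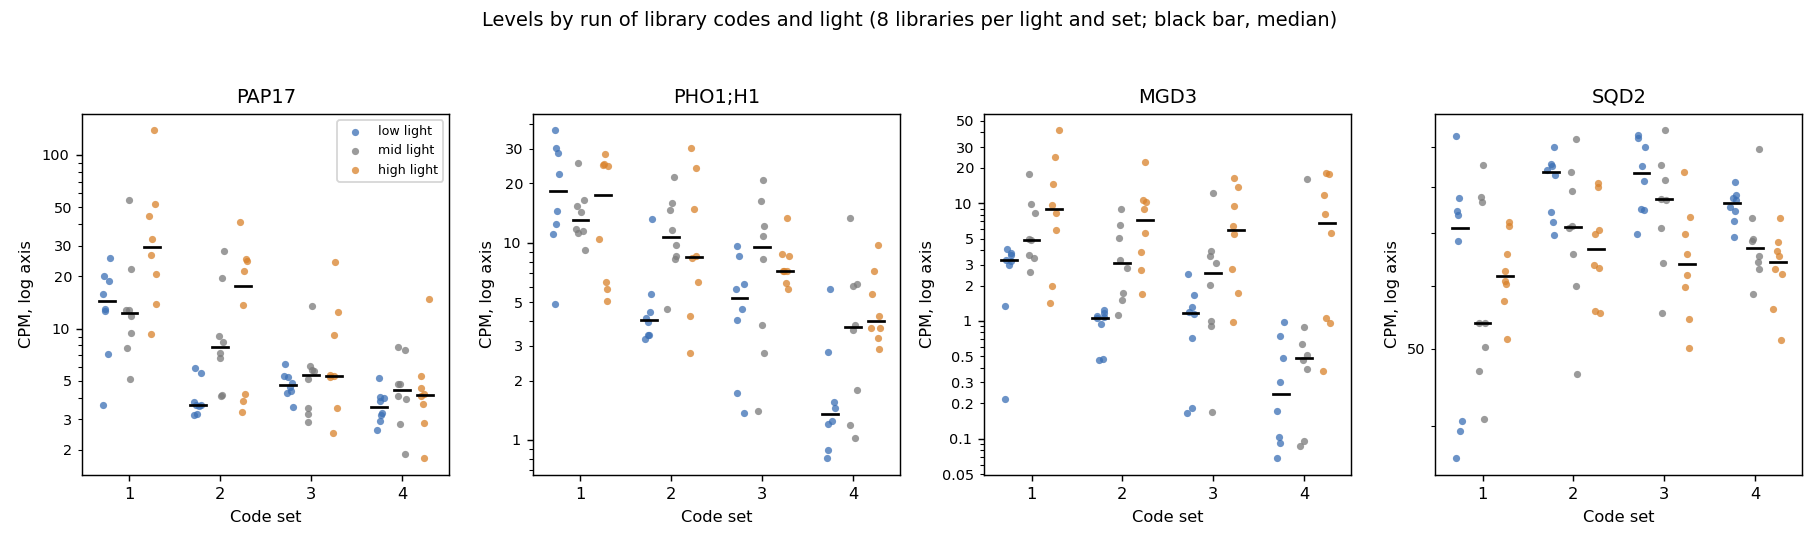
Level in CPM (log axis) of PAP17, PHO1;H1, MGD3 and SQD2 in the 4 code sets, by light; each point is 1 plant, with 8 plants per light level and set, and the black bar is their median. PAP17 in low light has a median of 14.3 CPM in code set 1 and 3.55 CPM in code set 4, and MGD3 is higher in high than in low light in every set.

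PAP17, PHO1;H1 and MGD3 differed between code sets. With group and code set in one fit, an alternative added after seeing the data, code set 1 stood above code sets 2 to 4 by 1.79 ± 0.19 for PAP17 (adjusted p = 1.03e-13). For PHO1;H1 the difference was 1.49 ± 0.20 (adjusted p = 8.08e-10) and for MGD3 1.33 ± 0.23 (adjusted p = 3.56e-07). In that comparison 7 of the 8 genes were called, all but PHT1;4, where 68.7% of all genes were called. In code set 4 against sets 1 to 3, PHO1;H1, MGD3 and PAP17 changed by -1.45, -1.17 and -1.23, and 4 of the 8 were called with SPX2, where 45.8% of all genes were called. Each set holds 2 plants of every group, so the sets do not separate the light levels or doses. The light change of PAP17 within sets 1 to 4 was 1.42, 1.71, 0.57 and 0.38, called in set 2 alone. What the code sets record was not tested.

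The sums of some marker lists of leaf tissue differed between the same conditions and those of others differed little. The summed level of 4 mesophyll markers (RBCS1A, LHCB1.2, LHCB2.1 and PSAD1) averaged 15044 CPM in high light and 30912 CPM in low light (n = 32 each), the sum of 3 epidermis markers 78.3 CPM in high light and 260.4 CPM in low light, and that of 4 xylem markers 28.9 CPM in high light and 45.9 CPM in low light. The sum of 4 guard cell markers averaged 139 CPM in high light and 149 CPM in low light, and that of 5 phloem markers 492 CPM in high light and 499 CPM in low light. Single phloem markers moved apart. In high light SEOR1 (-1.24, adjusted p = 1.64e-07) and SWEET12 (-0.43, adjusted p = 0.0476) were called lower and APL (0.14, adjusted p = 0.0304) higher. SUC2 and SWEET11 were not called for light. The sum of 5 senescence markers ran from 24.1 to 698 CPM with a median of 145 CPM in high light, against 25.2 to 315 CPM with a median of 38.4 CPM in low light. In high light 4 of the 5 were called higher (SAG13, ORE1, WRKY53 and SGR1), and the fifth, SAG12, was at 0 in 92 of the 96 libraries. The group with the highest median of the senescence sum was high light at 2 mM, at 225 CPM, which also had the highest median of PAP17. The next highest medians of that sum were 130 CPM in mid light at 2 mM and 128 CPM in high light at 20 mM. In these groups the medians of PAP17 were 5.61 and 13.1 CPM. The mesophyll sum averaged 32849 CPM at 20 mM and 14094 CPM at 2 mM (n = 24 each). Their part in the changes of the 8 genes was not tested.

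Deviations of single plants from their group were shared between some of the genes. Over the 96 libraries, with group means removed from log2 CPM, 12 of the 28 pairs among the 8 genes were correlated (two-sided permutation of libraries within groups, adjusted p under 0.05 over 28 pairs), 10 positively and 2 negatively. That permutation mixed the code sets, and the share over pairs of other genes is not given here. The count is thus not read as particular to these genes. PHO1;H1 and MGD3 gave Pearson r = 0.72 and Spearman rho = 0.68 (permutation adjusted p = 4e-05 and 5.6e-05, from the smallest p the resamples allow, 1e-05). SPX2 and PHO1;H1 gave r = 0.63 and rho = 0.66, with the same p-values. PHO1 and PAP17 ran opposite to each other, with r = -0.58 and rho = -0.46 and again those p-values. Without the 2 libraries farthest from the median of the first gene, the 3 pairs gave r = 0.69, 0.64 and -0.55. SPX1 and SPX2, the sensor pair, gave r = 0.54 and rho = 0.46 (permutation adjusted p = 4e-05 and 1.87e-04).

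Code sets moved these values. With the means of each group within its code set removed, r was 0.39 for PHO1;H1 and MGD3, 0.36 for SPX2 and PHO1;H1, and -0.48 for PHO1 and PAP17. MGD3 and PAP17 gave r = 0.38 and rho = 0.44 over groups (permutation adjusted p = 3.42e-04 and 1.75e-04) and r = -0.15 within code sets. PHT1;4 and PAP17 gave r = 0.61 within code sets, against r = 0.23 and rho = 0.11 over groups (permutation adjusted p = 0.0570 and 0.439). In the pooled within-set values 10 of the 28 pairs passed. In each code set alone, with 24 libraries, 0 of the 28 passed the permutation test.

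**Figure D4:**
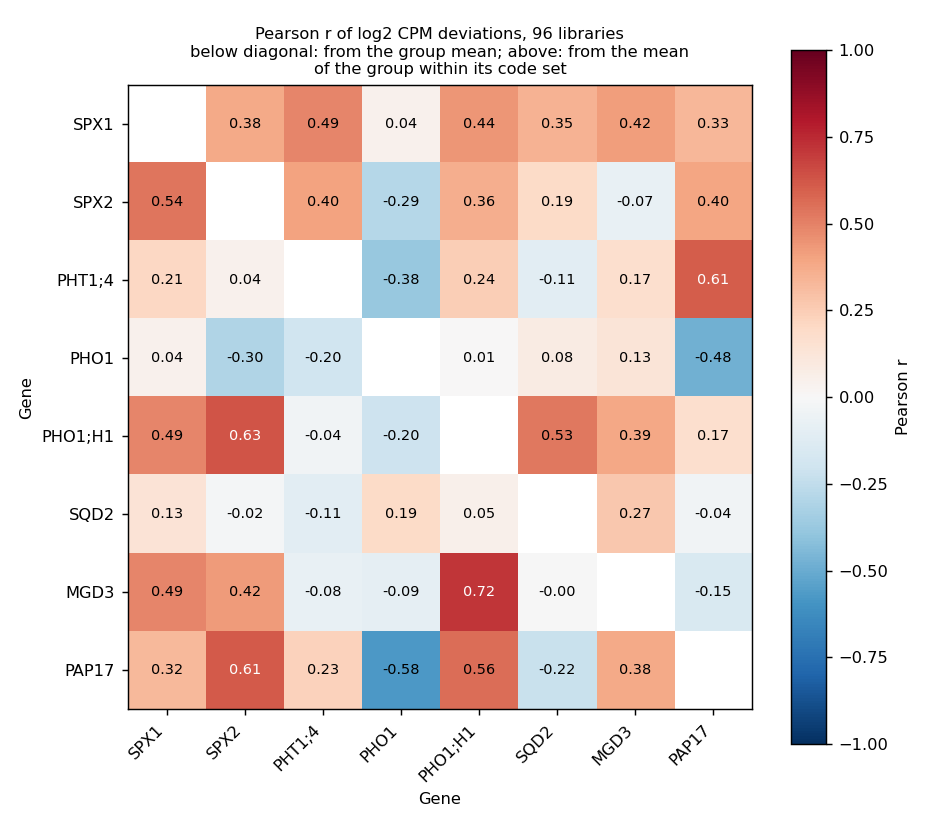
Pearson r of log2 CPM between the 8 tested genes over 96 libraries, as deviations from the group mean (below the diagonal) and from the mean of the group within its code set (above it); colour runs from -1 (blue) to 1 (red). PHO1;H1 with MGD3 is 0.72 below and 0.39 above the diagonal, and PHO1 with PAP17 is -0.58 and -0.48.

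Of 14446 tested genes averaging 5 CPM or more, those most like 1 of the 8 in log2 CPM over the 96 libraries were named as a description, since the points share libraries, groups and code sets. MGD3 was followed most closely by MT2A, a metallothionein gene (r = 0.89), ALPHA DOX2, an alpha-dioxygenase gene (r = 0.88), and AT1G76350, annotated as NIN-like protein 5 (r = 0.88). PAP17 had SNRK2-8, a protein kinase gene (r = 0.84), UGT87A2, a glucosyl transferase gene (r = 0.82), and Hsp70-2 (r = 0.82). PHT1;4 had CHX16, a cation/proton exchanger gene (r = 0.73), and SPX1 had OZF2, a zinc finger gene (r = 0.72). None of the 8 tested genes was among the 3 most like another, but MGD3 and PHT1;4, averaging 4.88 and 1.96 CPM, could not be listed. PHO1 and SQD2 reached r = 0.78 (AT5G57970) and 0.76 (APO2).

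The rest of the phosphate pathway was taken from lists of 71 further genes, of which 52 were tested. For light 22 of the 52 were called higher and 8 lower, which is 57.7% beside 62.5% of all genes. For nitrate 12 were called higher and 19 lower, which is 59.6% beside 63.3%. These shares lay near those of all genes. By direction, the calls over all genes that stand beside each list were 33.8% higher and 28.7% lower for light, and 28.7% higher and 34.6% lower for nitrate. The term that sets the nitrate change in high light against that in low light called 3 of the 52 (5.77%), which were PHT2;1, PHT4;1 and AT4G22990, the last named after its value was seen.

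Among the regulators, 9 of 13 tested genes rose in high light and 2 fell, and 1 rose and 6 fell at 20 against 2 mM. That is 84.6% called for light beside 62.5% of all genes, and 53.8% for nitrate beside 63.3%. PHR1 (AT4G28610), the central activator, changed by -0.09 ± 0.04 for light (adjusted p = 0.0299) and -0.07 ± 0.04 for nitrate (adjusted p = 0.119). Its light call was lost without replicate 1 (-0.09, adjusted p = 0.0507), 2 (-0.06, adjusted p = 0.135) or 4 (-0.08, adjusted p = 0.0847). PHO2 (AT2G33770), the ubiquitin conjugase that removes phosphate carriers, averaged 239 ± 95.3 CPM in high light and 144 ± 52.9 CPM in low light (SD, n = 32 each). It rose in high light by 0.70 ± 0.11 (adjusted p = 1.35e-07) and fell at 20 mM by 1.13 ± 0.13 (adjusted p = 3.48e-11). SPX4 (AT5G15330), another gene of the SPX family, followed the same directions (0.29 ± 0.09, adjusted p = 0.00239, and -0.50 ± 0.10, adjusted p = 1.54e-05). PHL1, a relative of PHR1, changed by 0.55 and -0.39 and ITPK1, an inositol phosphate kinase gene, by 0.18 and -0.48 for light and nitrate, all called.

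The 1 other PHT1 carrier with enough counts, PHT1;5 (AT2G32830), which moves phosphate between source and sink organs, was called in the same directions as PHT1;4. It averaged 4.42 ± 4.67 CPM in high light and 0.615 ± 0.562 CPM in low light (SD, n = 32 each), a change of 2.56 ± 0.31 (adjusted p = 3.02e-11). At 20 against 2 mM the change was -1.82 ± 0.35 (adjusted p = 7.16e-06). Carriers of organelles and vacuoles were called higher at 20 mM in 7 of 11 cases and lower in 2, and for high light 3 were higher and 2 lower, which is 81.8% called for nitrate beside 63.3% of all genes and 45.5% for light beside 62.5%. PHT2;1 (AT3G26570), the phosphate carrier of the chloroplast envelope, fell in high light by 0.73 ± 0.08 (adjusted p = 3.18e-13) and rose at 20 mM by 0.66 ± 0.09 (adjusted p = 2.79e-09). Its nitrate change was larger in high than in low light by 0.95 ± 0.22 (adjusted p = 0.00392). PHT4;1 (AT2G29650), a thylakoid carrier, changed by -0.53 and 0.43 and PHT3;3, a mitochondrial carrier gene, by 0.35 and -0.62, all called. Of the 7 other tested genes of the PHO1 family 3 rose in high light and 3 fell at 20 mM, which is 42.9% called in each, beside 62.5% of all genes for light and 63.3% for nitrate. AT1G35350 did both (0.90 ± 0.20, adjusted p = 8.44e-05, and -1.27 ± 0.23, adjusted p = 3.02e-06), but its light change was -0.13 within code set 1. PHO1;H3 changed by 0.52 ± 0.12 for light (adjusted p = 1.07e-04) and -0.05 ± 0.14 for nitrate (adjusted p = 0.755). AT2G03240 changed by -0.40 ± 0.19 for light (adjusted p = 0.0659) and -0.64 ± 0.22 for nitrate (adjusted p = 0.0101), the second of which was lost without replicate 4 (-0.38, adjusted p = 0.148) and was 0.78 within code set 1.

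In lipid remodelling, MGD2 and PLDP2 were called in the directions of MGD3, and SQD1 was called higher at 20 mM. MGD2 (AT5G20410), the sister galactolipid synthase, averaged 9.08 ± 3.78 CPM in high light and 4.84 ± 2.20 CPM in low light (SD, n = 32 each). It rose in high light by 0.88 ± 0.12 (adjusted p = 1.05e-09) and fell at 20 mM by 1.27 ± 0.14 (adjusted p = 5.76e-12). PLDP2 (AT3G05630), a phospholipase D that breaks down phospholipids under phosphate starvation, changed by 2.03 ± 0.22 (adjusted p = 6.27e-13) and -1.13 ± 0.25 (adjusted p = 6.70e-05). SQD1 (AT4G33030), which makes the sulfolipid head group, was not called for light (-0.14 ± 0.08, adjusted p = 0.151), though it was called without replicate 1 (-0.19, adjusted p = 0.0285) and without code set 1 (-0.22), and it rose at 20 mM by 0.73 ± 0.10 (adjusted p = 1.80e-09). In all, 3 of 12 tested genes of this list rose and 2 fell in high light, and 2 rose and 5 fell at 20 mM, which is 41.7% called for light beside 62.5% of all genes and 58.3% for nitrate beside 63.3%.

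Among genes that free phosphate, PAP26 and AT1G17710 were called in opposite directions. PAP26 (AT5G34850), a main acid phosphatase of the vacuole, fell in high light by 0.36 ± 0.05 (adjusted p = 7.75e-10) and rose at 20 mM by 0.30 ± 0.05 (adjusted p = 2.19e-06). AT1G17710, annotated as a phosphoethanolamine and phosphocholine phosphatase, changed by 1.81 ± 0.40 (adjusted p = 6.79e-05) and -2.0 ± 0.47 (adjusted p = 1.84e-04). Its level was low, with counts in 83 of the 96 libraries and a median of 0.598 CPM, against 145 CPM for PAP26. PPCK1, a kinase gene of phosphoenolpyruvate carboxylase, changed by -0.41 and 0.67, both called, but its light change was 0.05 without code set 1, and its light call was lost without replicate 1 (-0.18, adjusted p = 0.225) or 2 (-0.23, adjusted p = 0.140). Of 8 tested genes in this list, 3 rose and 2 fell in high light, and 2 rose and 2 fell at 20 mM, which is 62.5% called for light, as over all genes, and 50% for nitrate beside 63.3%. IPS1 (AT3G09922), a noncoding RNA widely used as a mark of phosphate starvation and looked up here after other values were seen, had a count in 1 of the 96 libraries. AT4 (AT5G03545), annotated as induced by phosphate starvation 2 and also looked up afterwards, had counts in 85. Its median was 0.233 CPM and its highest level 2.52 CPM. Both fell to the filter on low counts and were not tested for light or nitrate.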

How the data were processed

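Gene counts of 96 leaf libraries were used as deposited by the authors, as whole numbers per locus. Reads had been aligned with STAR 2.5.3a to TAIR10 and counted with featureCounts, per the submitters' processing notes. The kit was stranded, per the labels, but the strand setting of the counting is not given in the sources used here, so reads of antisense neighbours cannot be told apart. Each column was matched to its sample by the library code.

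Counts were scaled by TMM, genes with low counts were removed by filterByExpr on the groups, and 12 group means were fitted with the robust quasi-likelihood test of edgeR 4.0.16 in R 4.3.3 (84 residual degrees of freedom). Contrasts were adjusted by Benjamini-Hochberg over 19498 genes. The fit was tested on simulated data before use. CPM values are counts divided by the scaled library total. Log2 CPM with a prior count of 2 served the correlations, with 1e+05 resamples and 28 pairs, since 8 genes were tested. Floors of 3 counts cover counting error only. P1BS motifs and sequences were read from the RefSeq TAIR10.1 genome.

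Alternatives were RLE scaling, no filter, DESeq2 1.42.0, limma-voom (limma 3.58.1), the replicate number or the code set as a block, single code sets, leaving out each replicate number, and leaving out single libraries that stood apart, the last chosen after seeing the data. The 10 genes and the lists were chosen with earlier results of these data known. Other phosphate genes were named by rule, as up to 3 per list with the smallest p for light, nitrate or their interaction, with SPX4, PHR1, PHO2 and PHT2;1 in every case. No 2 libraries of a group were alike within sampling noise (336 pairs, lowest chi-square per degree of freedom 6.46). Marker sums add the CPM of each list.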

Additional observations from a re-analysis of the deposited data

Results flagged for a closer look

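In 12 of the 96 sets of 8 plants (8 genes in 12 groups), 1 plant stood apart from the other 7 by Dixon's criterion, which chance alone meets in about 1 set in 20. Of the 12 plants 10 belonged to code set 1, and the part of the code set in this was not tested. Among high values, MGD3 stood at 24.9 CPM in high light at 2 mM (replicate 1), with the other 7 at 5.49 to 9.61 CPM. SPX1 stood at 25.8 CPM in low light at 10 mM (replicate 2), with the others at 8.42 to 12.8 CPM. PAP17 stood at 18.9 CPM in low light at 10 mM (replicate 2) and at 20.2 CPM in low light at 20 mM (replicate 1), with the others at 3.24 to 7.10 CPM and at 2.59 to 5.53 CPM.

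Among low values, SQD2 stood at 39.4 CPM in low light at 2 mM (replicate 2), at 36.4 CPM at 5 mM (replicate 1) and at 40.6 CPM at 10 mM (replicate 1), while no other low light plant of these doses was below 68.3 CPM. PHO1 stood at 3.68 CPM in low light at 2 mM (replicate 2), at 4.19 CPM in low light at 10 mM (replicate 7) and at 4.63 CPM in mid light at 5 mM (replicate 2). PHO1;H1 stood at 1.02 CPM in mid light at 10 mM (replicate 8), with the others at 6.05 to 16.3 CPM. PHT1;4 stood at 0.114 CPM in low light at 20 mM (replicate 2), with the others at 0.68 to 1.7 CPM.

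The light change differed between nitrate doses in the test of all 6 terms for MGD3 (edgeR adjusted p = 0.0174), and among the other phosphate genes for PHT4;1 (edgeR adjusted p = 0.0013), PHT2;1 (edgeR adjusted p = 0.00372), AT2G03240 (edgeR adjusted p = 2.25e-05) and AT1G26730 (edgeR adjusted p = 0.00119), the last named after its value was seen. These are 4 of the 52 tested (7.69%), beside 12.7% of all genes. The change at 20 against 2 mM was larger in high than in low light for PHT2;1 by 0.95, for PHT4;1 by 0.76 and for AT4G22990 by 0.80 (edgeR adjusted p = 0.0156) on the log2 scale.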

How the results depend on the processing

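The counts of the 8 genes called were recomputed under 11 alternatives and 18 sets of left-out libraries. RLE scaling and no filter left every count within 1.5 times, as did DESeq2, and limma-voom moved 1 (all 6 interaction terms, 0 against 1). For high against low light 6 genes were called, and code sets 1, 3 and 4 alone called 1, 3 and 3. Over all genes that comparison called 12192, and 4372, 7960 and 5901 in those sets. Mid against low light called 1, and 3 with the code set as a block, 5 without code set 1, and 0, 4, 0 and 0 in code sets 1 to 4 alone. High against mid light called 3, and 0, 1, 0 and 1 in code sets 1 to 4. For 20 against 2 mM 4 were called, and 2 each in code sets 1 and 4. Over all genes 12343 were called, and 7630 and 3346 in those sets. The step from 2 to 5 mM called 0, and 1 with the code set block, without code set 1 and in code set 2. The step from 10 to 20 mM called 0, and 1 with the code set block and in code set 3. Light at 2 mM called 3, and 0, 1 and 0 in code sets 1, 3 and 4. Light at 5 mM called 1, and 2 without code set 1. Light at 10 mM called 2, 4 without code set 1, and 0 in code sets 1, 3 and 4. Light at 20 mM called 0, and 2 with the code set block and without code set 1, and 1 in code set 2. For 20 against 2 mM in mid light 3 were called, and 1 and 0 in code sets 1 and 4, and in high light 2 were called, and 1, 1, 1 and 0 in code sets 1 to 4. The difference of that change between high and low light called 0, and 2 without code set 1. All 6 terms together called 1, and 0 in each of code sets 1 to 4. Fits of 1 code set hold 24 libraries. The counts over all genes for the other comparisons in these alternative fits are not given here.

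Same-numbered plants of different groups deviated together on average (median r = 0.217 over 528 pairs, against -0.0203 over 3696 pairs with different numbers), as did plants of 1 code set with different numbers (0.245 over 550 pairs). Not every pair did (lowest -0.499). The replicate numbers follow the code sets, with 1 and 2 in set 1, 3 and 4 in set 2, 5 and 6 in set 3, and 7 and 8 in set 4. The exception is low light at 20 mM, where replicate 7 is in set 3 and replicate 6 in set 4. Leaving out 1 replicate number thus mostly takes plants from 1 code set. The labels name nothing else that plants of 1 number share, so the numbers were not taken to pair the plants. With a replicate block, mid against low light called 2 genes, the step from 10 to 20 mM 1 and light at 20 mM 2, and PHO1;H1 was called for light (0.62, adjusted p = 0.0145). The other counts with the replicate block stayed within 1.5 times.

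Leaving out libraries gave 5 to 6 genes for light, 1 to 2 for mid against low, 2 to 4 for high against mid, 3 to 5 for nitrate and 2 to 4 for nitrate in mid light. Light at 2, 5, 10 and 20 mM gave 3 to 4, 1 to 2, 2 to 3 and 0 to 2, the single interaction 0 to 1 and all 6 terms 0 to 1.

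Directions turned within single code sets for SQD2 (light, code set 1, 0.033), PHO1 (light, code set 3, 0.087), SPX1 (nitrate, code set 2, 0.040), SPX2 (nitrate, code set 4, -0.048, and in mid light -0.013), AT1G35350 (light, code set 1, -0.13) and AT2G03240 (nitrate, code sets 1 and 4, 0.78 and 0.14). PPCK1 turned in light without code set 1 (0.051) and in code sets 2 and 4 (0.063 and 0.164). The causes were not tested. The count of correlated pairs was 12, from 10 to 15 under the other settings over all sets, and 0 within each code set alone. SPX3 and PHT1;1 had too few counts to be tested.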
